A study of Mus musculus with 10 samples.

Results

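The circadian clock genes described here are 10 genes of the mouse molecular clock, chosen by name: Clock, Arntl, Npas2, Per1, Per2, Per3, Cry1, Cry2, Dbp and Tef. Arntl is called Bmal1 in newer annotations. Each was found by its Ensembl ID in a table of 55416 genes. The table holds RNA recovered from mouse pituitary by immunoprecipitation with the RNA-binding proteins Musashi1 and Musashi2. It holds 5 Musashi IP libraries, made with antibodies to Musashi1 and Musashi2 pooled together, and 5 IgG libraries, made with control rabbit IgG. Each lysate was made from 6 pooled pituitaries of control, sighted FVB mice (FVB.129P2-Pde6b+Tyrc-ch/Ant) aged 8 to 10 weeks, and was split between the 2 antibody arms. Lysates 2, 5 and 6 came from females and lysates 3 and 7 from males. All groups share strain, age range and tissue, and the labelled differences between them are antibody and sex. Because the antibodies were pooled, binding by Musashi1 and by Musashi2 cannot be told apart. The labels give no time of day for tissue collection.

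The molecular clock is a feedback loop of transcription. CLOCK, or its relative NPAS2, pairs with ARNTL and switches on the Per and Cry genes, whose proteins return to the nucleus and inhibit that pair. Dbp and Tef encode PAR bZIP transcription factors that carry the rhythm to output genes. In the pituitary, as in other peripheral tissues, these mRNAs are known to vary over the day. Musashi proteins bind short elements in 3′ UTRs and are known to repress or activate translation of the mRNAs that carry them.

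Of the 10 clock mRNAs, Tef was the only member that differed between Musashi IP and IgG, being 1.72-fold higher in Musashi IP. Clock, Cry1 and Cry2 had higher values in Musashi IP, and Arntl, Npas2, Per1, Per2, Per3 and Dbp had lower values, but none of these 9 passed the test. The deposited values are raw read counts; levels are given as CPM (counts per 1e6 counts of a library) after scaling by edgeR's TMM factors, and differences as log2 of Musashi IP over IgG from edgeR's quasi-likelihood test with the lysate as a block. A gene was called at a Benjamini-Hochberg adjusted p under 0.05 over the 20550 genes tested. All 10 members passed the low-count filter.

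Sequences with the Musashi motif are shown for Tef, the called member, for Clock, the member with the most motifs, and for Per3 and Cry2, as members with motifs that were not called. The motif searched was A or G, then 1 to 3 U, then AGU (that is, AUAGU or GUAGU with 1 U, AUUAGU or GUUAGU with 2 and AUUUAGU or GUUUAGU with 3), on the RNA strand only, in the longest 3′ UTR that GENCODE release M21 annotates for each gene. Overlapping matches were counted, and every match holds the core UAG. The windows below are 30 bases long and read 5′ to 3′ from the GENCODE transcript sequences, with the motif in capitals and positions on GRCm38. Both motifs of Tef are shown, from chr15:81824193-81824222 and chr15:81826187-81826216 on the plus strand. The first 3 windows of Clock, which overlap each other, lie at chr5:76216280-76216309, chr5:76216272-76216301 and chr5:76216265-76216294 on the minus strand. The Per3 window is at chr4:151005597-151005626 and the Cry2 window at chr2:92405536-92405565, both on the minus strand.
Tef motif 1: caugcuaauccuGUUAGUauagacagggug
Tef motif 2: uuuggaggaccuGUUAGUcaccuuuaucuu
Clock motif 1: aaugccaugaagAUAGUccaguaguuaaua
Clock motif 2: gaagauaguccaGUAGUuaauaguccccac
Clock motif 3: guccaguaguuaAUAGUccccaccccaaac
Per3 motif 1: cucuuguucaugAUAGUaaaacagucaaca
Cry2 motif 1: cuagaagccacaGUAGUgacuuucagccca

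The Clock 3′ UTR held 26 motifs in 6831 bases, or 3.81 per kb, and more motifs than 99.5% of the 14106 tested protein-coding genes with an annotated 3′ UTR. By density it stood less far out, above 89.9% of those genes. The Tef 3′ UTR held 2 motifs in 3182 bases, or 0.63 per kb, a density above that of 31.9% of genes. The mRNA called in Musashi IP therefore had fewer motifs per length than Clock, Per2, Per3, Cry2, Npas2 and Per1, none of which was called. Per3 held 5 motifs, Per2 4, Cry2 3, Npas2 2 and Per1 1. Arntl, Cry1 and Dbp held 0 in their longest 3′ UTRs of 507, 612 and 323 bases. In all, 7 of the 10 members held a motif, against 71.2% of genes, and the median gene held 2 motifs, or 1.45 per kb. All 10 held the core UAG, as did 95.3% of genes. A match is a sequence description and not a measured binding site.

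**Figure D1:**
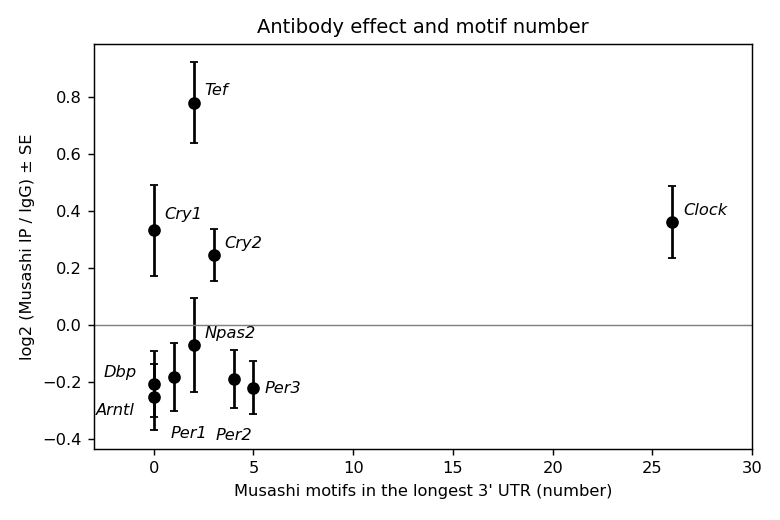
Fitted log2 difference of Musashi IP over IgG (vertical axis, bars are SE from 5 lysates) for each clock gene against the number of Musashi motifs in its longest annotated 3′ UTR (horizontal axis). Tef, with 2 motifs, lies highest at 0.78, while Clock lies at 0.36 with 26 motifs and Cry1 at 0.33 with 0.

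Library totals were 8.74 to 13.0 M counts in Musashi IP and 6.67 to 9.35 M counts in IgG (M, units of 1e6), so that 1 count in the shallowest library equals 0.150 CPM. The Musashi IP library of lysate 6 was the deepest and had the lowest TMM factor, 0.783, against 0.944 to 1.11 in the other libraries. The part of this in the lysate 6 ratios was not tested. The mRNAs of the proteins immunoprecipitated, Msi1 (0.61 ± 0.13, adjusted p = 0.0113) and Msi2 (0.76 ± 0.15, adjusted p = 0.00850), were higher in Musashi IP in 5 of 5 lysates; this checks mRNA, not the recovery of protein. The anterior pituitary markers Gh, Prl, Pomc, Cga, Tshb, Fshb and Pou1f1 were all present, the summed level, most of it Gh and Prl, being 14561 to 40133 CPM in Musashi IP and 13221 to 51694 CPM in IgG, higher in Musashi IP in 2 of 5 lysates. Within that list Fshb, of the gonadotrophs, was 4.86-fold higher in Musashi IP in 5 of 5 lysates (adjusted p = 0.00492), more than any listed clock gene, and the other 6 did not pass. Of the posterior lobe and hypothalamic markers, Avp, Oxt and Rax were too low to be tested. With Vip these markers summed to 3.55 to 11.9 CPM in Musashi IP and 2.98 to 9.55 CPM in IgG. Vip was higher in Musashi IP (1.10 ± 0.36, adjusted p = 0.0494), close to the threshold and on only 1 to 106 counts per library. The 4 immune markers summed to 20.6 to 39.8 CPM in Musashi IP and 35.0 to 51.7 CPM in IgG, and the 4 erythroid markers to 272 to 691 CPM in Musashi IP and 463 to 1254 CPM in IgG, both lower in Musashi IP in 5 of 5 lysates. The 4 endothelial markers summed to 41.3 to 93.6 CPM in Musashi IP and 50.1 to 236 CPM in IgG, and in lysate 2 they stood apart, with log2 ratios of −1.85 for Pecam1, −2.48 for Cdh5, −2.48 for Kdr and −2.42 for Emcn. Their part in the clock results was not tested.

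Across all genes tested, 3804 (18.5%) were higher and 1727 (8.4%) lower in Musashi IP. Among protein-coding genes the shares were 25.7% higher and 4.01% lower. The clock members, with 1 of 10 higher and 0 lower, were thus called no more often than genes in general. By unadjusted p under 0.05, 4 members differed, Tef, Clock and Cry2 toward Musashi IP and Per3 toward IgG, beside 42.1% of all genes. DESeq2 and limma-voom also called 0 members lower. The median log2 difference of the members was −0.13, beside −0.07 over all genes tested and 0.09 over protein-coding genes. The log2 ratio was above 0 in all 5 lysates for 3 members, Tef, Clock and Cry2, a pattern shown by 22.4% of all genes, and it was below 0 in all 5 lysates for 4 members, Arntl, Per2, Per3 and Dbp, beside 18.6% of all genes. Scaling by library totals alone, which lowers the median of all genes to −0.24, gave 3149 genes higher and 4107 lower; 1 member was then higher and 2, Arntl and Per3, were lower.

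Among the activators, CLOCK is a bHLH-PAS transcription factor that also acetylates histones, ARNTL is its obligate partner, and NPAS2 can take the place of CLOCK. Clock had 164, 191, 265, 372 and 299.7 CPM in the Musashi IP libraries of lysates 2, 3, 5, 6 and 7, against 143, 168, 229, 193 and 249 CPM in the IgG libraries of the same lysates. Musashi IP was higher in every lysate, although the 2 groups overlap across lysates. The fitted log2 difference was 0.36 ± 0.13 (SE), with an adjusted p of 0.0625, short of the threshold. Lysate 6 had a log2 ratio of 0.94 for Clock, while the other 4 lysates lay between 0.19 and 0.27. Without lysate 6 the difference was smaller, 0.22 ± 0.06, but the ratios agreed more closely and Clock passed the test (adjusted p = 0.0327). With library totals the difference was 0.18 (adjusted p = 0.155).

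Arntl had 66.8, 48.5, 88.9, 60.0 and 70.2 CPM in Musashi IP, against 67.2, 53.9, 106, 97.4 and 77.5 CPM in IgG, in the same lysate order. All 5 lysates were lower in Musashi IP, by a margin that ran from a log2 ratio of −0.01 in lysate 2 to −0.70 in lysate 6. The fitted difference of −0.25 ± 0.12 did not pass (adjusted p = 0.135), and without lysate 6 it was −0.14. With library totals it was −0.43 and passed (adjusted p = 0.0469). Npas2 was the lowest member, with 1.80, 3.38, 8.14, 3.94 and 6.15 CPM in Musashi IP, against 2.02, 3.52, 6.65, 4.66 and 7.25 CPM in IgG. These rest on 15 to 75 counts per library, and the difference of −0.07 ± 0.16 (adjusted p = 0.795) was smaller than its error. Lysate 5 was the only lysate in which Npas2 was higher in Musashi IP, and leaving out single lysates gave −0.17 to −0.02, the ends being without lysate 3 and without lysate 6 (−0.14 without lysate 5).

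Per1, Per2 and Per3 encode the PERIOD proteins, which hold back CLOCK and ARNTL together with the cryptochromes. Per1 is also induced by signals acting through CREB. Per1 had 153, 94.1, 125, 79.9 and 79.8 CPM in Musashi IP, against 135, 102, 140.5, 123 and 90.8 CPM in IgG, in lysates 2, 3, 5, 6 and 7. It was higher in Musashi IP only in lysate 2, and the difference was −0.18 ± 0.12 (adjusted p = 0.270), or −0.07 without lysate 6 and −0.29 without lysate 3. Per2 had 42.2, 83.0, 35.6, 34.6 and 38.8 CPM in Musashi IP, against 43.5, 97.9, 38.4, 48.4 and 40.6 CPM in IgG. Lysate 3 stood about 2-fold above the rest in both groups, and Musashi IP was the lower library in every lysate. The difference was −0.19 ± 0.10 (adjusted p = 0.190), or −0.12 without lysate 6 and −0.29 without lysate 7.

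Per3 was the best-represented member by raw reads, with 26715 counts over the 10 libraries. It had 220.1, 491, 213, 197 and 299 CPM in Musashi IP, against 225, 562, 243, 281 and 334 CPM in IgG. As for Per2, lysate 3 was highest in both groups and all 5 Musashi IP libraries lay below their IgG partners. The difference of −0.22 ± 0.09 had an adjusted p of 0.1104, and it was −0.14 without lysate 6. Per3 passed with library totals (−0.39, adjusted p = 0.0386), with a stricter filter of 2 CPM (−0.31, 0.0446) and with a correction for gene length and GC content (−0.35, 0.0326), the last of which also brought Clock (0.50, 0.0300) and Per2 (−0.37, 0.0350) past the threshold.

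The cryptochromes CRY1 and CRY2 are the strongest repressors of CLOCK and ARNTL. Cry1 had 11.5, 17.2, 19.2, 27.5 and 21.6 CPM in Musashi IP, against 11.1, 15.2, 14.2, 14.0 and 21.6 CPM in IgG, in lysates 2, 3, 5, 6 and 7. The excess in Musashi IP came mainly from lysates 5 and 6, with log2 ratios of 0.43 and 0.96, while lysates 2 and 7 had ratios of 0.05 and −0.00. The fitted difference was 0.33 ± 0.16 (adjusted p = 0.143). It was 0.17 without lysate 6, 0.15 with library totals and 0.21 with the length and GC correction. Cry2 had 105, 106, 108, 111 and 91.8 CPM in Musashi IP, against 92.4, 102, 88.6, 87.6 and 71.1 CPM in IgG. It was higher in Musashi IP in 5 of 5 lysates by small and similar amounts, with log2 ratios between 0.05 and 0.37, and the difference of 0.24 ± 0.09 had an adjusted p of 0.0761. It was 0.07 both with library totals and with the length and GC correction, 0.15 with the 2 CPM filter and 0.14 without lysate 7.

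DBP and TEF bind the D-box element in the promoters of output genes, among them Per genes. TEF takes its name from thyrotroph embryonic factor, after the pituitary cells that make thyroid-stimulating hormone, in which it was found. Tef had 209, 303, 217, 382 and 238 CPM in Musashi IP, against 139, 232, 129, 144 and 140.0 CPM in IgG, in lysates 2, 3, 5, 6 and 7. It averaged 269.9 ± 73.0 CPM in Musashi IP and 157 ± 42.5 CPM in IgG (SD, n = 5 each). Every Musashi IP library exceeded its IgG partner, and the groups overlapped across lysates only because the IgG library of lysate 3 was high. The log2 difference was 0.78 ± 0.14 (adjusted p = 0.00674), with single lysates between 0.39 in lysate 3 and 1.41 in lysate 6. Tef passed under all 13 alternative settings, with log2 values of 0.60 to 0.84 and a highest adjusted p of 0.0298. Without lysate 6 it was 0.62 ± 0.08 (adjusted p = 0.000360).

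Dbp had 27.7, 53.9, 13.0, 11.8 and 23.7 CPM in Musashi IP, against 29.9, 54.4, 14.99, 17.8 and 26.5 CPM in IgG. Dbp did not show the excess seen for Tef: all 5 lysates were slightly lower in Musashi IP, and the difference was −0.21 ± 0.12 (adjusted p = 0.202), or −0.11 without lysate 6 and −0.35 without lysate 3. The Dbp exons overlap those of Sphk2 on the opposite strand over 539 bases, 18.0% of the Dbp exons. The Tef exons overlap the antisense gene Gm17597 over 2.45% of their length, the Cry2 exons D930015M05Rik over 4.67% and the Arntl exons Gm45355 over 0.44%. The library kit keeps strand, but the strand setting of the counting is not given in the sources used here, so reads of these shared bases are uncertain.

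**Figure D2:**
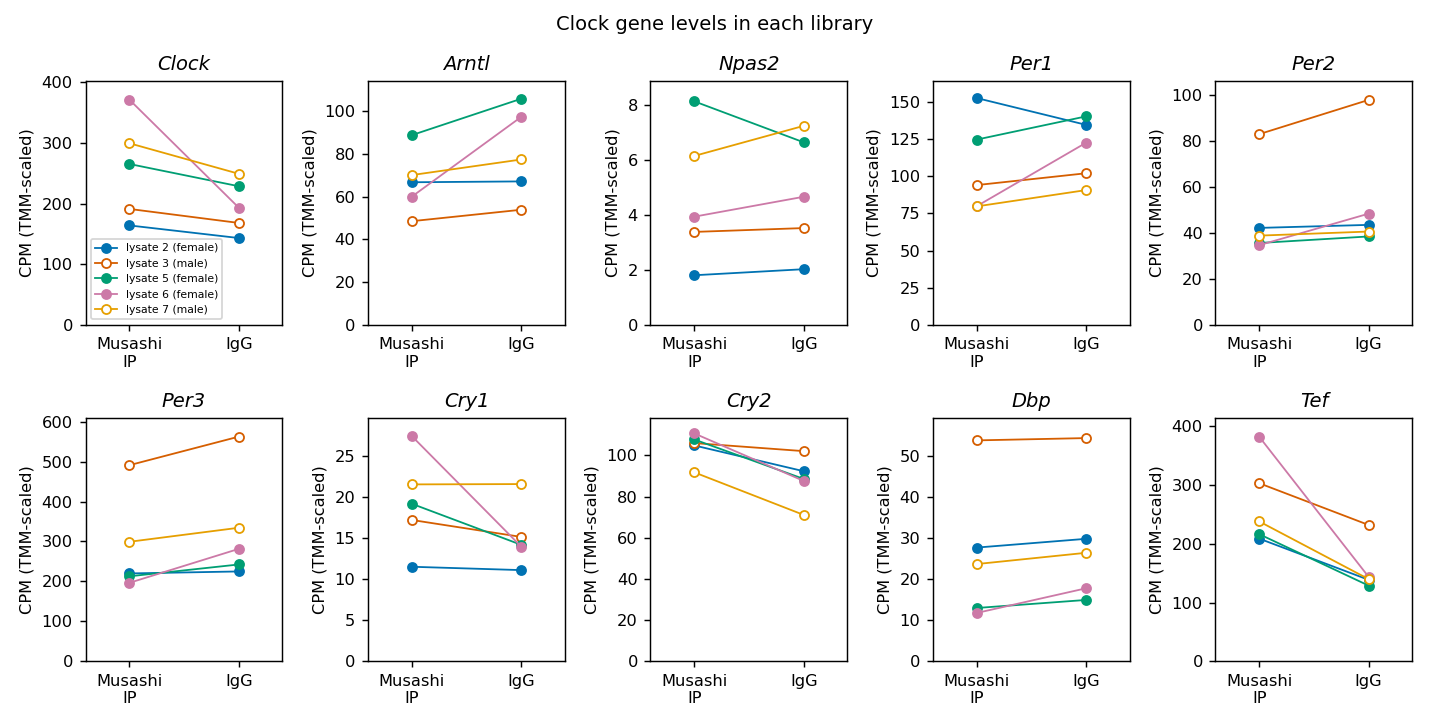
TMM-scaled CPM of each clock gene (vertical axis, from 0) in the Musashi IP and IgG libraries, with a line for each of the 5 lysates; filled points are female lysates and open points male lysates. The Tef lines all descend toward IgG, steepest in lysate 6, and lysate 3 is highest in both groups for Per2, Per3 and Dbp.

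**Figure D3:**
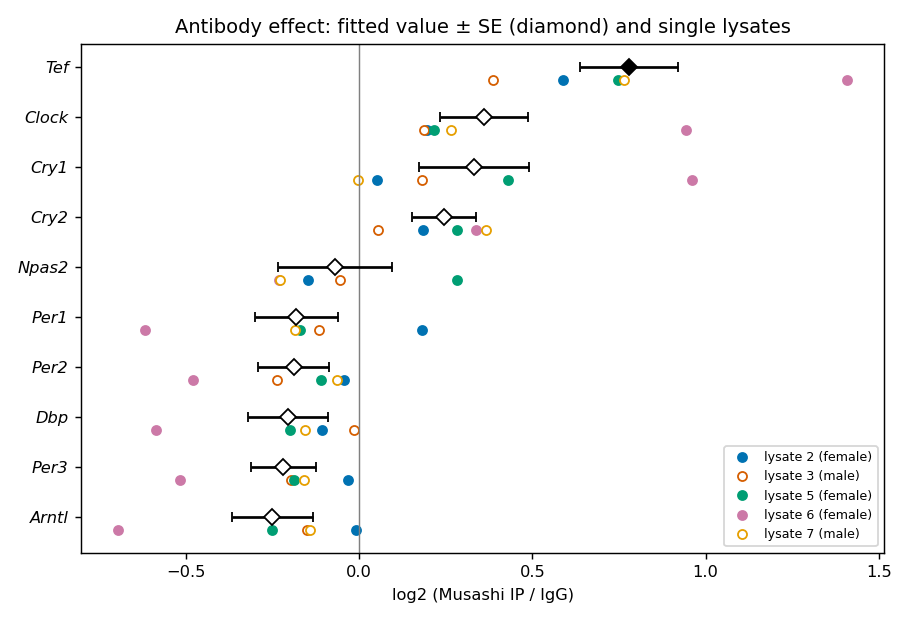
Log2 of Musashi IP over IgG for each clock gene (horizontal axis): the diamond is the fitted value with its SE over 5 lysates, filled where the adjusted p is under 0.05, and the points below it are single lysates. Tef is the only filled diamond, at 0.78, and lysate 6 gives the value farthest from 0 for all members but Cry2 and Npas2. This is not particular to the members: lysate 6 was also farthest from 0 for each of the 13 further clock genes called higher.

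Related members were also set against each other within each lysate, as a difference of their log2 ratios. The 5 pairs were chosen after their values were seen, so these are descriptions; with 5 lysates the smallest p that an exact two-sided sign-flip permutation test can give is 0.0625. Tef exceeded Dbp by 0.99 ± 0.60 (SD, n = 5) and in 5 of 5 lysates (exact p = 0.0625, adjusted over the 5 pairs 0.104). Clock exceeded its partner Arntl by 0.61 ± 0.58 in 5 of 5 lysates (exact p = 0.0625, adjusted 0.104), and its relative Npas2 by 0.44 ± 0.46 in 4 of 5 lysates (exact p = 0.125, adjusted 0.156). Tef also exceeded Hlf, the remaining PAR bZIP factor, by 0.47 ± 0.27 in 5 of 5 lysates (exact p = 0.0625, adjusted 0.104). Cry1 and Cry2 differed by 0.08 ± 0.37, with Cry1 higher in 3 of 5 lysates (exact p = 0.688, adjusted 0.688).

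Levels of different genes were compared as CPM per kb of exon. In Musashi IP the order was led by Tef at 34.3 ± 9.28, followed by Per3 at 29.6 ± 12.7, Per1 at 18.9 ± 5.65, Clock at 18.8 ± 6.10 and Cry2 at 16.5 ± 1.15 CPM per kb (SD, n = 5). In IgG it was led by Per3 at 34.3 ± 14.3, followed by Per1 at 20.98 ± 3.77, Tef at 19.9 ± 5.41, Clock at 14.3 ± 3.15 and Cry2 at 14.0 ± 1.77 CPM per kb. Tef thus stood at the first place in Musashi IP and the third in IgG. Its range over the Musashi IP libraries, 26.6 to 48.6 CPM per kb, overlapped that of Per3, 20.5 to 51.1 CPM per kb. The lower places were the same in both groups: Arntl (8.89 in Musashi IP and 10.7 in IgG), Dbp (8.70 in Musashi IP and 9.60 in IgG), Per2 (8.00 in Musashi IP and 9.18 in IgG), Cry1 (5.81 in Musashi IP and 4.56 in IgG) and Npas2 (0.98 in Musashi IP and 1.01 in IgG). Over the IgG libraries, neighbours in the order overlapped in range except for Per2 above Cry1 and Cry1 above Npas2. With the length of the longest annotated transcript in place of all exons, 6 of the 10 members kept their place in the IgG order. Tef was among those that moved, lying above Per1 (35.6 against 25.3 CPM per kb).

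**Figure D4:**
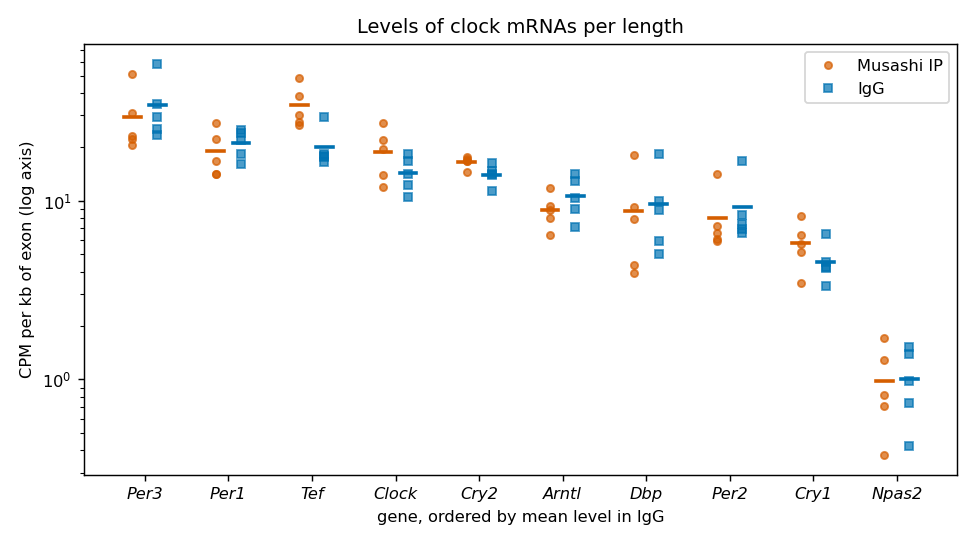
Level of each clock gene in CPM per kb of exon (vertical log axis) in the Musashi IP and IgG libraries; points are libraries and bars the means of 5, with genes ordered by their mean in IgG. Tef shows the widest gap between the means (34.3 in Musashi IP and 19.9 in IgG), and Npas2 lies lowest near 1 CPM per kb.

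The lysates differed from each other more in some clock mRNAs than the antibody arms did. Dbp spanned 4.56-fold from its lowest to its highest Musashi IP library and 3.63-fold in IgG, and Npas2 spanned 4.52-fold in Musashi IP and 3.58-fold in IgG. The SD of log2 CPM over lysates was 0.88 in Musashi IP and 0.72 in IgG for Dbp, larger than that of 97.4% in Musashi IP and 95.9% in IgG of the 12746 genes of at least 8 CPM on average. Npas2, which is below that level itself, had SDs of 0.79 in Musashi IP and 0.70 in IgG. Per3 (0.54 in Musashi IP and 0.53 in IgG) and Per2 (0.52 in Musashi IP and 0.55 in IgG) also lay above the medians of 0.32 in Musashi IP and 0.24 in IgG. Cry2 was among the steadiest genes in Musashi IP, with an SD of 0.10, lower than all but 3.60% of genes, and 0.19 in IgG.

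The members did not move between lysates in the same way. Dbp, Per2 and Per3 were highest in lysate 3 in both groups. Arntl was lowest in lysate 3 and highest in lysate 5, again in both groups. Clock, Npas2 and Cry1 were lowest in lysate 2 in both groups. The libraries of a lysate share their mice, so agreement between the groups is not an independent repeat. As background, Per2, Per3 and Dbp are known to peak at about the opposite time of day to Arntl and Npas2 in mouse tissues; time of collection is not in the labels, and it cannot be told apart here from lysate. In these bulk samples fewer cells of a type and less RNA per cell cannot be told apart either. Over the IgG libraries, the summed levels of all 5 marker lists were highest in lysate 2. The anterior pituitary, endothelial and posterior lobe lists were lowest in lysate 3 and the immune and erythroid lists in lysate 6. Their part in these lysate differences was not tested.

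**Figure D5:**
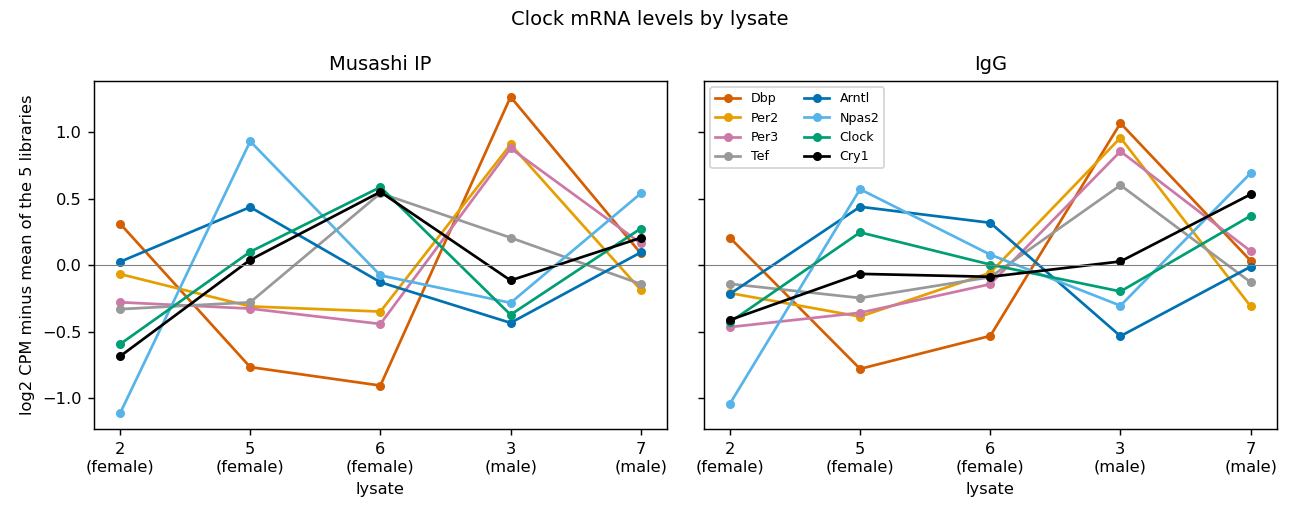
Log2 CPM of 8 clock genes in each lysate minus the gene's mean over the 5 libraries (vertical axis), in Musashi IP and in IgG, with female lysates 2, 5 and 6 left of male lysates 3 and 7. Lines join a gene's points and imply no order; Dbp, Per2 and Per3 are highest and Arntl is lowest at lysate 3 in both groups.

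The labels give the sex of each lysate, which allows female and male pituitaries to be compared with 3 and 2 lysates. The antibody effect differed between the sexes for 0 of the 10 members, and for 0% of all genes tested by edgeR's quasi-likelihood test, with 187 genes (0.91%) but 0 members at an unadjusted p under 0.05; DESeq2 also called 0 members. The Tef difference was 0.92 ± 0.18 in females (adjusted p = 0.0234) and 0.58 ± 0.22 in males (adjusted p = 0.369), and the female effect minus the male effect was 0.34 ± 0.29. Cry1 had the widest gap, 0.41 ± 0.32 (adjusted p = 1). Without lysate 6 the sex difference was 0.09 for Tef and 0.17 for Cry1. Leaving out lysates 2, 3, 5 and 7 in turn gave 0.51, 0.17, 0.46 and 0.46 for Tef. The same fits gave 0.63, 0.52, 0.47 and 0.24 for Cry1.

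Within each antibody arm, 0 of 10 members passed the test of female against male. The share of all genes that passed was 2.84% in Musashi IP and 4.5% in IgG. By unadjusted p under 0.05, 3 members differed in Musashi IP, beside 16.5% of all genes, and 4 in IgG, beside 16.6%. Per3 averaged 209.8 CPM in female and 395 CPM in male Musashi IP libraries, a log2 difference of −0.93 ± 0.27 (adjusted p = 0.116). In IgG it averaged 249.7 CPM in females and 448 CPM in males, −0.85 ± 0.22 (adjusted p = 0.0511). Dbp averaged 17.5 CPM in female and 38.8 CPM in male Musashi IP libraries, −1.15 ± 0.44 (adjusted p = 0.230), and 20.9 CPM in female and 40.5 CPM in male IgG libraries, −0.96 ± 0.33 (adjusted p = 0.154). Per2 was −0.72 ± 0.32 in Musashi IP (adjusted p = 0.294) and −0.68 ± 0.29 in IgG (adjusted p = 0.270), while Per1 was 0.45 ± 0.31 in Musashi IP (adjusted p = 0.523) and 0.45 ± 0.16 in IgG (adjusted p = 0.165).

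The male values of Per2, Dbp and Per3 rest largely on lysate 3. A fit without lysate 3 or lysate 7 has 1 male lysate, so only the size of the difference is given for it. Without lysate 3, Per2 was −0.05 in Musashi IP and 0.10 in IgG. Dbp was then −0.42 in Musashi IP and −0.34 in IgG, and Per3 was −0.51 in Musashi IP and −0.42 in IgG. Per1 in Musashi IP was 0.19 without lysate 2 and 0.70 without lysate 6. Without lysate 7, when lysate 3 is the only male lysate, Per2 was −1.17 in Musashi IP and −1.17 in IgG. Dbp was then −1.63 in Musashi IP and −1.38 in IgG, and Per3 was −1.25 in Musashi IP and −1.17 in IgG. Leaving out female lysate 2 brought some values past the threshold. Per3 in IgG passed without lysate 2 (−0.77, adjusted p = 0.0400), and with all lysates under DESeq2 (−0.84, 0.0137). Without lysate 2, Dbp passed in both Musashi IP (−1.70, adjusted p = 0.0120) and IgG (−1.29, 0.0111). With 2 male lysates, sex and lysate are hard to separate, and the time of collection cannot be told apart from either.

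The wider clock was followed in 42 further genes, all of which were tested. Of these, 13 were higher and 1 lower in Musashi IP, with a median log2 difference of 0.25, beside 18.5% higher and 8.4% lower of all genes and 25.7% higher of protein-coding genes. The counts of the lists below are to be read against these shares. Without lysate 7 the number higher was 7. The most called list was that of the kinases that phosphorylate clock proteins, with 5 of 10 higher and 0 lower, beside the 25.7% of protein-coding genes. Gsk3b, glycogen synthase kinase 3 beta, was higher at 1.29 ± 0.19 (adjusted p = 0.00399), averaging 485 ± 263 CPM in Musashi IP and 182 ± 38.4 CPM in IgG (SD, n = 5 each). Csnk1d, the casein kinase that marks PER proteins for degradation, was higher at 1.04 ± 0.16 (adjusted p = 0.00442), averaging 301 ± 116 CPM in Musashi IP and 139.9 ± 13.6 CPM in IgG. Its close relative Csnk1e had a difference of −0.02 ± 0.10 (adjusted p = 0.874) and 40.2 ± 4.74 CPM in Musashi IP and 40.9 ± 4.79 CPM in IgG. The catalytic subunits of AMP-activated kinase, Prkaa1 (0.82 ± 0.18, adjusted p = 0.0135) and Prkaa2 (0.47 ± 0.14, adjusted p = 0.0380), were higher too, but Prkaa2 missed the threshold without lysate 3, 5 or 7 (adjusted p of 0.109, 0.0812 and 0.0566), with library totals (0.0664), with DESeq2 size factors (0.0515) and without the lysate block (0.236).

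Parts of the ubiquitin ligases that act on PER and CRY proteins were higher for 3 of 9 genes, with 0 lower, a share near the 25.7% of protein-coding genes. Fbxw11, the F-box protein beta-TrCP2 that recognises phosphorylated PER, had the highest difference of the listed clock genes, 1.80 ± 0.25 (adjusted p = 0.00376). It averaged 231 ± 114 CPM in Musashi IP and 61.2 ± 8.36 CPM in IgG. The shared subunits Skp1a (0.85 ± 0.24, adjusted p = 0.0329) and Rbx1 (0.53 ± 0.17, adjusted p = 0.0427) were higher, less firmly: Skp1a missed the threshold without lysate 3, 5 or 7 (adjusted p of 0.0506, 0.0753 and 0.0584), and Rbx1 without lysate 2, 3, 5 or 7 (0.0502, 0.0523, 0.0918 and 0.0730) and with DESeq2 size factors (0.0544).

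Among the nuclear receptors of the second clock loop, which compete for sites in the Arntl promoter, 2 of 5 were higher and 0 lower, beside 25.7% of protein-coding genes. The activators Rora (0.57 ± 0.13, adjusted p = 0.0150) and Rorb (0.59 ± 0.13, adjusted p = 0.0144) were the called genes, each higher in 5 of 5 lysates. Rora missed the threshold without lysate 7 (adjusted p = 0.0653), and Rorb without the lysate block (0.118). The repressors Nr1d1 (REV-ERB alpha) and Nr1d2 (REV-ERB beta) had differences of −0.22 ± 0.10 (adjusted p = 0.132) and 0.21 ± 0.13 (adjusted p = 0.225). Nr1d1 passed with library totals (−0.40, adjusted p = 0.0366), the 2 CPM filter (−0.32, 0.0483) and the length and GC correction (−0.33, 0.0409). Its exons overlap Thra on the opposite strand over 8.55% of their length.

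Of the 6 other bHLH factors and clock repressors, Cipc, which binds CLOCK and inhibits it, was higher (0.57 ± 0.13, adjusted p = 0.0142; 0.0576 without lysate 7), and 0 were lower. The PAR bZIP factor Hlf and its antagonist Nfil3 gave 0 of 2 called. Of the 10 co-factors and outputs, 2 were higher and 1 lower, beside 25.7% higher and 4.01% lower of protein-coding genes. Nampt, the rate-limiting enzyme of NAD salvage, was higher at 0.90 ± 0.19 (adjusted p = 0.0107), and Nono, an RNA-binding partner of PER proteins, at 0.62 ± 0.15 (adjusted p = 0.0166). The histone acetyltransferase Ep300 was the gene lower in Musashi IP, at −0.28 ± 0.08 (adjusted p = 0.0352), with 217 ± 21.9 CPM in Musashi IP and 263 ± 17.0 CPM in IgG. It missed the threshold without lysate 2, 5 or 7 (adjusted p of 0.0621, 0.198 and 0.0926), with no low-count filter (0.0846) and without the lysate block (0.141).

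The genes most like Clock and Cry2 were found as those with the smallest root mean square difference over the 5 lysate log2 ratios. For Clock this was Slain2, at 0.05 on the log2 scale, and for Cry2 it was Hid1 at 0.03. With 5 points each and 12746 genes of at least 8 CPM searched, these are descriptions of the profiles.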

How the data were processed

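RNA from 5 Musashi IP and 5 IgG libraries was sequenced from TruSeq total RNA libraries, a kit that keeps strand, per the labels' protocols. The authors deposited raw counts per Ensembl gene with no normalization, as whole numbers. The submitters' processing notes list the tools FastQC 0.11.8, Trimmomatic 0.39 and STAR 2.7.1a and the build GRCm39. How reads were counted (program, annotation release, strand, multimapping reads) is not given in the sources used here. The protocol describes 6 immunoprecipitations; 1 further pair was not analysed here. Symbols were matched by Ensembl ID to GENCODE M21 on GRCm38 (52083 IDs, 94.0%), which also gave exon lengths and 3′ UTRs; the printed coordinates are of GRCm38.

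The deposited counts were tested with edgeR 4.0.16 under R 4.3.3 (filterByExpr, TMM, quasi-likelihood F test, Benjamini-Hochberg over all genes tested), with lysate as a block for the antibody effect (4 residual degrees of freedom) and antibody nested in sex for its sex difference. Standard errors are the absolute log2 difference over the square root of F, and lysate ratios used a prior count of 2. The pairing comes from the protocol, in which each lysate was split; deviations of same-lysate libraries from their group means correlated at 0.186 to 0.778. No libraries held identical values (highest correlation 0.982). Counts are not independent molecules, since no molecular identifiers are described. Only the antibody fit was tried on simulated counts, which were drawn without differences between lysates, and its outcome is not reported here.

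Alternatives used DESeq2 1.42.0, limma 3.58.1, other scalings and filters, and left out each lysate. Named genes were all 10 members, up to 4 called genes per other list by size, and Nr1d1, Nr1d2, Rora, Csnk1d and Csnk1e, with the closest gene by lysate ratios for the members of smallest adjusted p; some genes that this rule names are not reported here. The members and lists were chosen with earlier results of these data known.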

Additional observations from a re-analysis of the deposited data

Results flagged for a closer look

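Dixon's criterion was applied on the log2 scale to 30 groups of 5 values (each member in each antibody arm and its lysate ratios). Of these, 5 held a value that lay far from the other 4, where chance gives about 1 in 20 such groups. The gaps below are of log2 values, while levels are printed as CPM. For Clock, the log2 ratio of 0.94 in lysate 6 stood above the other lysates, with a gap of 0.895 of the whole range. For Per2, lysate 3 was high in both arms, at 83.0 CPM in Musashi IP (gap 0.775) and 97.9 CPM in IgG (gap 0.755). For Cry2, lysate 7 was low in Musashi IP at 91.8 CPM (gap 0.7105, barely past the critical value of 0.71). For Tef, lysate 3 was high in IgG at 232 CPM (gap 0.815), and lysate 3 also had the lowest Tef ratio of Musashi IP over IgG, 0.39.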

How the results depend on the processing

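Against 1 member higher and 0 lower, 2 were lower with library totals, 1 with the 2 CPM filter and 2 with the length and GC correction in the fit with the replicate block, and 2 were higher with no low-count filter, with that correction and without lysate 6; over left-out lysates the numbers were 1 to 2 higher and 0 lower. Without the replicate block the members' counts were 1 higher and 0 lower. No member changed direction in the antibody comparison under any of the 13 alternatives. Of the other clock genes, where 13 were higher and 1 lower, 4 were lower with library totals, 4 with the 2 CPM filter, 2 with the length and GC correction and 0 with no low-count filter; without the replicate block 10 were higher and 0 lower, and over left-out lysates 7 to 15 were higher and 0 to 2 lower. Female against male in IgG, 0 members became 1 with library totals, 3 with no low-count filter, 1 with DESeq2 and 0 to 2 over left-out female lysates. In Musashi IP, 0 members became 2 with no low-count filter and 0 to 1 over left-out female lysates. The sex difference of the antibody effect stayed at 0 members in every alternative, the fit without the replicate block included. Directions turned for Csnk1e, at 0.0020 without lysate 5 and 0.0011 without lysate 6 (−0.11 to 0.0020 over left-out lysates), and for Per2 female against male in IgG, at 0.096 without lysate 3 (−1.17 to 0.096). In the level order, 6 of 10 members kept their place with the longest transcript, and with UAG alone all 10 members held a motif, against 7. Over all genes, 3804 higher and 1727 lower became 2407 and 176 without the replicate block, 2715 and 182 without lysate 5, 2288 and 597 without lysate 7, 3149 and 4107 with library totals, and 3430 and 3214 with the 2 CPM filter. The cause of these shifts was not tested. Depth limits Npas2 most, at 15 to 75 counts per library.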

Other observations

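Among the genes whose lysate ratios were closest to those of Tef, Msi2 itself stood at the third place, with a root mean square difference of 0.06 on the log2 scale; it was singled out after its values were seen. The log2 ratios of Tef were 0.59, 0.39, 0.75, 1.41 and 0.77 in lysates 2, 3, 5, 6 and 7, and those of Msi2 were 0.54, 0.28, 0.82, 1.41 and 0.77. Both were highest in lysate 6 and lowest in lysate 3. Of the immune markers 2 of 4 and of the erythroid markers 3 of 4 were lower in Musashi IP, beside 8.4% of all genes, and 0 of 4 endothelial markers passed. Of the anterior pituitary markers 1 of 7 (Fshb) and of the posterior lobe and hypothalamic markers the 1 tested (Vip) were higher, beside 18.5% of all genes.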
